A study of Rattus norvegicus with 19 samples.

Results

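The matrix proteases, cathepsins and their inhibitors were taken here as the genes whose probe sets carry 1 symbol of the matrix metalloproteinase (Mmp), tissue inhibitor of metalloproteinases (Timp), ADAM, ADAMTS or cathepsin (Cts) families, with the plasminogen activators Plau and Plat and the receptor Plaur. Members were chosen by gene name, with earlier results of these data known. The rule found 97 probe sets for 69 of the 14217 genes named on the array, and each gene was represented by its brightest probe set. These 69 genes comprised 11 secreted and 6 membrane-type matrix metalloproteinases, 4 TIMPs, 3 genes of plasminogen activation, 16 ADAM genes, 12 ADAMTS genes and 17 cathepsins.

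RNA from Sprague-Dawley rat cells was hybridised to 19 Affymetrix arrays. By their labels, 5 arrays hold stem Leydig cells, 3 progenitor, 4 immature and 4 adult Leydig cells, successive stages of the cell that makes testosterone between the tubules of the testis, and the other 3 hold bone stem cells. No genetic change or treatment is named for any group. The sources used here do not give age, isolation or culture, nor whether arrays of a group come from separate animals, so p-values cover only the spread between samples of a group, which may be technical.

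Matrix metalloproteinases cut collagens and other proteins of the extracellular matrix, and TIMPs block them by binding the active site. Urokinase (Plau), held at the cell surface by its receptor Plaur, and tissue plasminogen activator (Plat) turn plasminogen into plasmin, which cuts fibrin and can activate some metalloproteinases. ADAM proteins are membrane-anchored and release growth factors and receptors from the cell surface, whereas ADAMTS proteins are secreted and several cut proteoglycans. Most cathepsins are acid proteases of the lysosome. In the testis, proteases of these families have been studied in germ cell release and in the turnover of the interstitial matrix.

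A signal is the deposited array intensity on a linear scale, with the 2% trimmed mean of every array at 99.99. The median probe set averaged 29.9 over the 19 arrays, and 50 of the 69 members reached it in at least 1 group, while 8 members stayed under a signal of 16 on every array. Log2 changes are on the log2(signal + 16) scale, later minus earlier stage or stem Leydig minus bone stem, with their standard error (SE) from one limma fit. A gene was called at an adjusted p (Benjamini-Hochberg over 31042 probe sets) under 0.05. Probes differ in how brightly they bind, so levels are compared between groups and never between genes.

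The arrays carried markers of other cells, and these moved with the groups. The 7 Leydig markers summed to 300 to 1525 on stem Leydig arrays, where Star alone reached a group mean of 16, and to 11707 or more on later Leydig arrays. The 9 smooth muscle and peritubular markers summed to 5778 to 12396 on stem Leydig arrays, 341 to 1467 on later Leydig arrays and 8395 to 12480 on bone stem arrays. The 16 leukocyte markers summed to 391 to 469, 1348 to 6075 and 11451 to 16805 in the same order, with Ptprc, the phosphatase of all leukocytes, averaging 11.3 in stem Leydig and 291 in bone stem cells. The 14 germ cell markers summed to 338 to 404 on stem, 322 to 536 on progenitor, 665 to 1401 on immature and 1682 to 3563 on adult arrays. Less RNA per cell and fewer cells of a type cannot be told apart in these bulk samples, and the part of these other cells in the results below was not tested. Progenitor replicate 3 had a beta-actin 3′ to 5′ signal ratio of 6.35, and the bone stem arrays had ratios of 2.38 to 2.95, against at most 2.29 on all others, and immature replicate 4 stood apart from its group.

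Among the 4 Leydig stages, 52 of the 69 members differed in the moderated F-test, beside 63.9% of all genes. The stem stage had the highest mean for 24 of the 52, the progenitor stage for 8, the immature for 6 and the adult for 14. Between progenitor and stem cells, 15 members were called higher and 25 lower, against 26.8% of all genes called higher and 18.5% lower. With median centring of the arrays 11 were higher and 33 lower (17.2% and 27.7% of all genes), and the median change of all genes was -0.14 on the log2 scale in place of 0.08. Between adult and immature cells, 8 were called higher and 16 lower (12.0% and 17.3% of all genes), and 12 and 13 with median centring (17.5% and 9.71%), where the median change of all genes was 0.12 in place of -0.06. The higher count was 5 without adult replicate 3, where 1415 of all 14217 genes were called higher in place of 1706. Between adult and stem cells, 19 were called higher and 25 lower (27.7% and 26.0% of all genes). The median change of the 69 members was -0.11, -0.08 and 0.02 in these 3 comparisons, beside 0.08, -0.06 and 0.03 over all genes.

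No member was called between immature and progenitor cells, where 1.33% of all genes were called higher and 0.612% lower. At an unadjusted p under 0.05 in the same limma fit, 11 members were higher and 5 lower, beside 7.81% and 7.58% of all genes. With quantile normalization Ctsh and Ctsk were called higher, and without immature replicate 4 Adam2, Adam6 and Adam32 were called higher and Adamts9 lower.

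**Figure D1:**
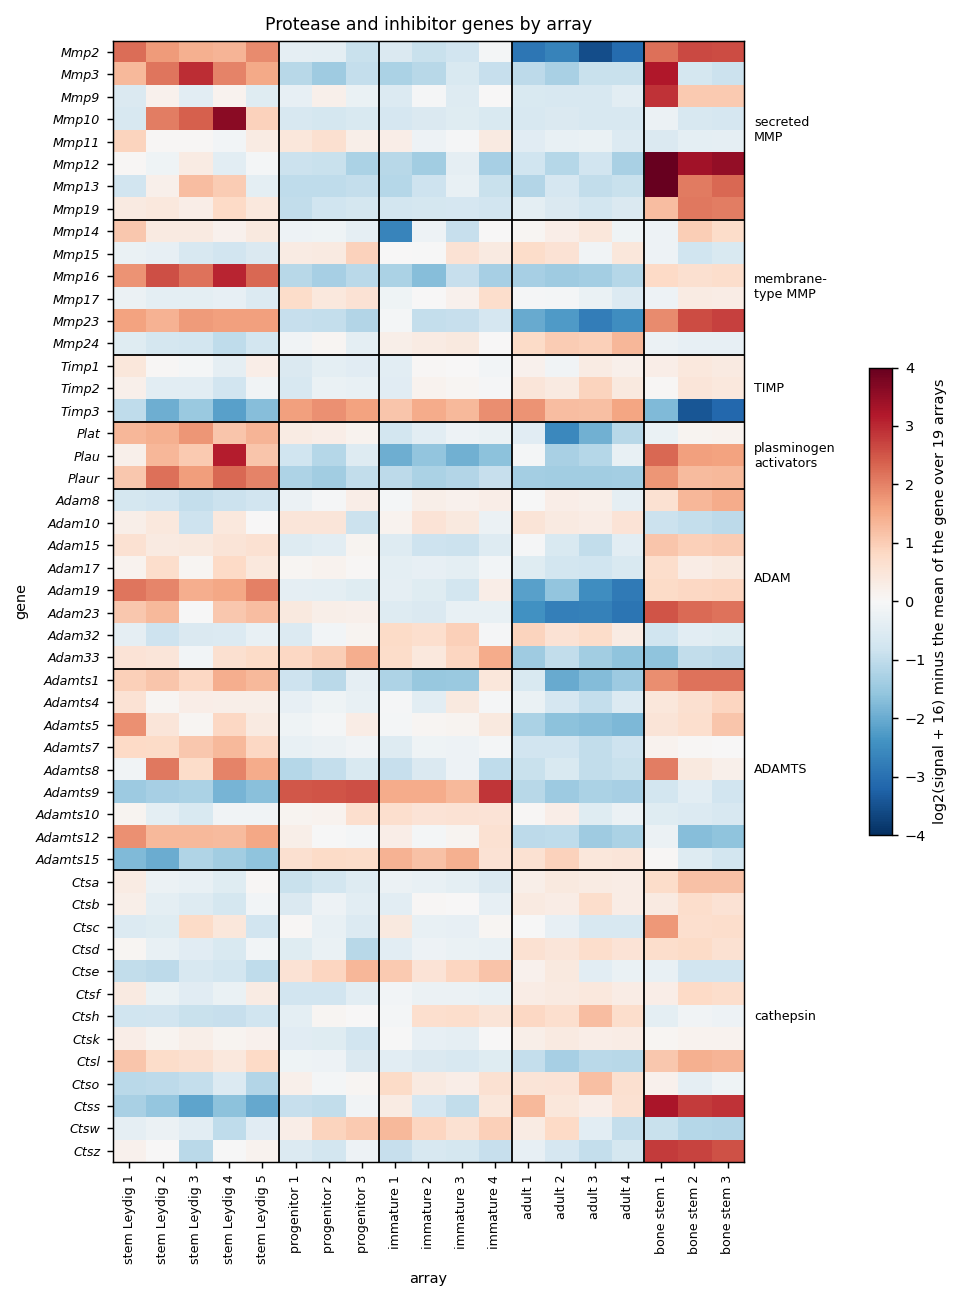
Each row is 1 of the 50 members that reached the median probe set in at least 1 group, grouped by family, and each column is 1 of the 19 arrays. Colour gives log2(signal + 16) minus the gene's mean over all arrays, red above it and blue below it. Mmp2, Mmp16, Mmp23, Plaur and Adam19 are red on the 5 stem Leydig arrays and pale or blue on the later ones, while Timp3 and Adamts15 run the other way.

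Sequence upstream of the start was available for 45 of the 69 members, as 250 bases from RefSeq on the rat assembly GRCr8. The AP-1 element TGAGTCA, in either direction (TGACTCA on the other strand), is a textbook feature of metalloproteinase promoters, and was looked for after the values had been seen. It was present in 7 of the 45 member windows (15.6%) and in 1354 of all 33469 windows (4.05%). Members had a single window per gene, whereas the full set of windows was not limited in this way. Shares of member windows and of all windows in this paragraph are therefore not strictly of the same unit. The 7 genes were Mmp3, Mmp7, Mmp10, Mmp12, Mmp13, Plaur and Adam19. Except for Mmp7, which was under 16 on every array, each of these was called lower in progenitor than in stem cells. Of all 69 members 25 were called lower there, most of them without this match or without a window, as were 18.5% of all genes. The Mmp genes of the list belong to one run of neighbours on chromosome 8, so they are not independent cases. A link between the match and the change was not tested. The TATA-like string TATAAA, also on either strand, was in 24.4% of member windows and 12.9% of all windows. A match describes letters in this window and is no evidence of binding. The windows of the 5 genes among them that were called lower with no overlap between progenitor and stem arrays are printed, while Mmp10, whose groups overlapped, is not. Capitals mark the AP-1 letters, and all 5 genes are on the plus strand.
Mmp3, chr8:12925031-12925280: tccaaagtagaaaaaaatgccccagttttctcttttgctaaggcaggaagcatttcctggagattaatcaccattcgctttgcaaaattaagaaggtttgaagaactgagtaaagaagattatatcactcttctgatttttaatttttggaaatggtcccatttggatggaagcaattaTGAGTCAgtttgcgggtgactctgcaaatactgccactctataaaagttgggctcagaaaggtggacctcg
Mmp12, chr8:12866402-12866651: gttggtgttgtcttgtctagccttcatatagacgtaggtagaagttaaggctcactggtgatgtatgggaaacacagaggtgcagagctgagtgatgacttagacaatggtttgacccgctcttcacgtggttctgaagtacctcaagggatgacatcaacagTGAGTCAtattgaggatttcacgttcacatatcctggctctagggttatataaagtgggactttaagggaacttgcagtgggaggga
Mmp13, chr8:12782579-12782828: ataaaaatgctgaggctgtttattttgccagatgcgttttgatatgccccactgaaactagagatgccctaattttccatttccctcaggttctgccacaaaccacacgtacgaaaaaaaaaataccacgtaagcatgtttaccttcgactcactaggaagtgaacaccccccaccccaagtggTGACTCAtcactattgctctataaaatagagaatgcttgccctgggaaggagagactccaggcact
Plaur, chr1:89181113-89181362: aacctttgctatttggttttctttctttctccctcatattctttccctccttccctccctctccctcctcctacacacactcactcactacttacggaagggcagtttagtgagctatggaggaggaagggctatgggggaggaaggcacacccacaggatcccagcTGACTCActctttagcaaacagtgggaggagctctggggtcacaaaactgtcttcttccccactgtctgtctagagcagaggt
Adam19, chr10:30992511-30992760: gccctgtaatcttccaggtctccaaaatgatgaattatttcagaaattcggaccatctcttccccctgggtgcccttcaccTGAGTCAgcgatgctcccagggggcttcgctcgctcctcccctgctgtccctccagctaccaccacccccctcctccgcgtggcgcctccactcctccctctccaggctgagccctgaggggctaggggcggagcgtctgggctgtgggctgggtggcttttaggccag
The first base of the match lay 71 bases before the annotated start in Mmp3, 87 in Mmp12, 66 in Mmp13, 83 in Plaur and 169 in Adam19.

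Of the 11 secreted metalloproteinases, 6 fell and 0 rose in progenitor relative to stem cells, where 18.5% of all genes fell and 26.8% rose. In adult relative to stem cells 7 fell and 0 rose (26.0% and 27.7% of all genes), with a median change of -0.95. The rest were not called. Mmp2, the gelatinase that cuts type IV collagen, had signals of 2405, 1653, 1371, 1309 and 1908 on the stem arrays, 383, 379 and 262 on the progenitor arrays, 332, 264, 289.6 and 469.5 on the immature arrays, and 54.1, 64.3, 28.4 and 45.0 on the adult arrays. It was high on every stem array, intermediate and alike on the progenitor and immature arrays, and low on every adult array, with no overlap at either drop. Mmp2 fell by 2.27 ± 0.22 (SE) on the log2 scale in progenitor relative to stem cells (adjusted p = 5.5e-08). In adult relative to immature cells it fell by 2.47 ± 0.21 (adjusted p = 7.27e-08), and its change in adult relative to stem cells was -4.77 ± 0.20. The other probe set of Mmp2 was dim, with group means of 14.2 to 18.1, and was called in no comparison.

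Mmp3, stromelysin-1, which cuts proteoglycans and activates other metalloproteinases, read 104, 200.4, 365, 178 and 125 on the stem arrays and 2.41 to 16.1 on the 11 later Leydig arrays. Progenitor cells averaged 6.10 ± 3.53 (SD, n = 3) and stem cells 194 ± 103 (n = 5), a change of -3.14 ± 0.60 (adjusted p = 0.00026). Mmp10, stromelysin-2, was uneven among stem cells, with 1.31, 94.3, 125, 311 and 34.6, and did not pass 3.15 on any later Leydig array. Its call (a change of -2.31 ± 0.54 in progenitor relative to stem cells, adjusted p = 0.00177) thus stands beside groups that overlap, since stem replicate 1 was as dim as the later cells.

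Mmp19 averaged 12.8 ± 2.84 in progenitor and 53.6 ± 10.4 in stem cells, and fell by 1.26 ± 0.18 (adjusted p = 1.24e-05). Mmp12, the macrophage elastase, and Mmp13, collagenase-3, were dim throughout the lineage, at 19.01 to 42.7 and 8.95 to 83.2 on the stem arrays and at most 20.3 and 18.02 on the later ones. Their calls in progenitor relative to stem cells (changes of -0.94 ± 0.27 and -1.26 ± 0.42, adjusted p = 0.00965 and 0.0222) depended on single arrays. The Mmp12 call was lost without progenitor replicate 3 (-0.81, adjusted p = 0.0561), and both were lost at a pseudocount of 64 (adjusted p = 0.115 and 0.138). The Mmp13 call was also lost without any 1 progenitor array or without stem replicate 3 or 4 (adjusted p from 0.056 to 0.0605). Within the lineage Mmp11 was called lower between adult and stem cells alone (78.8 ± 8.95 against 135 ± 45.8, adjusted p = 0.00461). Mmp9, the other gelatinase, stayed at 13.4 or below on all 16 Leydig arrays, and Mmp7, Mmp8 and Mmp28 did not differ among the stages by the F-test.

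Among the membrane-type genes the directions were mixed. Between progenitor and stem cells 3 of 6 rose and 2 fell (26.8% and 18.5% of all genes). With median centring 2 rose and 3 fell (17.2% and 27.7% of all genes). Mmp16, which activates pro-MMP2 at the cell surface, read 179, 315, 236, 445 and 259 on the stem arrays and 1.18 to 13.4 on the 11 later arrays. It fell by 3.55 ± 0.22 in progenitor relative to stem cells (adjusted p = 5.46e-11), the largest fall of any member at that step. Mmp23 was 794, 694, 858, 820.3 and 828 on the stem arrays, 127, 122 and 102 on progenitor, 236, 121, 127 and 152 on immature, and 49.99, 39.9, 23.7 and 32.2 on adult arrays. Like Mmp2, it dropped at the first and the last step, by 2.62 ± 0.20 (adjusted p = 2.04e-09) and 1.72 ± 0.20 (adjusted p = 2.35e-06).

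Mmp14, the main activator of pro-MMP2, differed among the stages by the F-test (adjusted p = 0.0186), but its brighter probe set was called in no comparison of 2 groups. It read 2079.6, 1273, 1276, 1119.9 and 1290.4 on the stem arrays, 849.9, 863 and 759.7 on progenitor, 146, 853, 513 and 999.5 on immature, and 1038, 1174, 1339.7 and 878 on adult arrays. Its change in progenitor relative to stem cells was -0.73 ± 0.40 (adjusted p = 0.174), with no overlap between these 2 groups. In a fit of those 2 groups alone it was called lower at the same change (adjusted p = 0.0123), as it was with the mean of its 2 probe sets (-1.13, adjusted p = 0.00322), and with median centring (-0.95, adjusted p = 0.0478). The adult change of 1.08 ± 0.39 relative to immature cells (adjusted p = 0.0538) was called in 6 settings, among them median centring (1.26, adjusted p = 0.0151) and the fits without immature replicate 2 or 4 (1.33 and 1.40, adjusted p = 0.0253 and 0.0155). Between adult and stem cells it was called lower with the mean of its probe sets alone (-0.66, adjusted p = 0.0461).

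Mmp24, a membrane-type enzyme best known from neurons in mice, climbed through the lineage. Its signals were 126, 105, 103, 83.4 and 103 on stem, 163, 194 and 136 on progenitor, 217, 235, 244 and 185 on immature, and 325, 384, 368 and 480.3 on adult arrays. Adult cells were higher than immature cells by 0.77 ± 0.14 (adjusted p = 0.000303) and than stem cells by 1.75 ± 0.13 (adjusted p = 4.48e-10), without overlap. The rise in progenitor relative to stem cells (0.59 ± 0.14, adjusted p = 0.00227) was not called with median centring (0.36, adjusted p = 0.0943). Mmp15 rose in progenitor cells (30.3 ± 11.3, against 5.98 ± 3.16 in stem cells, adjusted p = 0.000399), and Mmp17 did so too (52.4 ± 7.05, against 18.9 ± 2.76, adjusted p = 0.000385).

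All 3 genes of plasminogen activation fell after the stem stage and were lower in adult than in stem cells. Of all genes, 18.5% were lower in progenitor than in stem cells and 26.0% in adult than in stem cells. Plaur read 81.3, 196, 129.9, 208 and 166 on the stem arrays and 1.26 to 7.87 on the 11 later Leydig arrays, where all 11 were under 16. It fell by 3.06 ± 0.22 in progenitor relative to stem cells (adjusted p = 5.7e-10). Plau was 119, 274, 222, 1007 and 233 on stem, 50.8, 37.1 and 64.7 on progenitor, 13.8, 22.98, 14.6 and 21.5 on immature, and 94.7, 31.1, 36.8 and 78.8 on adult arrays. No later array reached the lowest stem array, and the drop in progenitor cells was 2.18 ± 0.42 (change of -2.18, adjusted p = 0.000337). Adult cells were above immature cells on every array for Plau, a change of 1.07 ± 0.41 that missed the call (adjusted p = 0.0705) and passed in 6 settings, among them median centring (1.25, adjusted p = 0.0245), a fit of the 2 groups (adjusted p = 0.0227) and without adult replicate 2 (1.27, adjusted p = 0.0463).

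Plat declined in steps, with 466, 504, 634, 402 and 477 on stem, 225, 216 and 199 on progenitor, 99.4, 129, 150.5 and 144 on immature, and 126, 15.98, 34.4 and 74.0 on adult arrays. It fell by 1.15 ± 0.30 in progenitor relative to stem cells (adjusted p = 0.0049) and by 1.11 ± 0.29 in adult relative to immature cells (adjusted p = 0.00927), though adult replicate 1 lay within the immature range. The call between adult and immature cells was not made in a fit of those 2 groups alone (adjusted p = 0.0716).

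**Figure D2:**
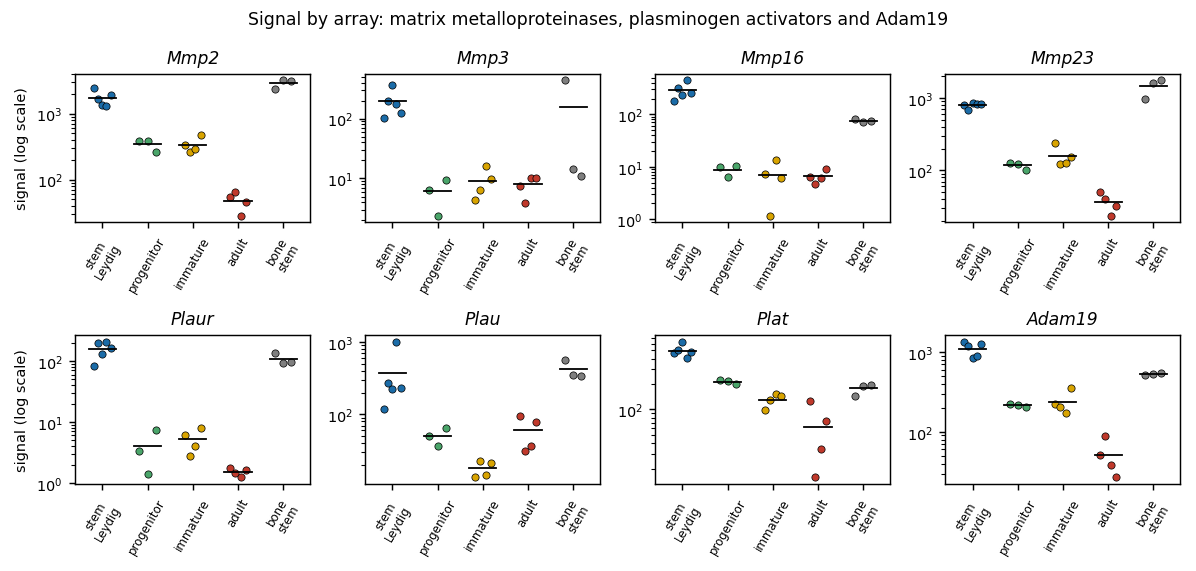
Points are signals of single arrays on a log axis, in stage order with bone stem cells last, and lines are group means. For Mmp3, Mmp16 and Plaur all 11 later Leydig arrays lie below 20, while Mmp2, Mmp23 and Adam19 show a further drop in adult cells.

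The partners of plasminogen activation, a list of 13 measured genes, moved both ways. In progenitor relative to stem cells 4 were higher and 7 lower (26.8% and 18.5% of all genes). Serpine2 (protease nexin-1), an inhibitor of Plau and Plat, averaged 21.2 ± 2.82 in progenitor and 1213 ± 142 in stem cells, a change of -5.04 ± 0.16 (adjusted p = 2.02e-15). Vitronectin (Vtn), a matrix ligand of Plaur, averaged 232 ± 52.3 in progenitor and 0.916 ± 0.701 in stem cells (change 3.85 ± 0.31, adjusted p = 3.31e-09). In adult relative to immature cells 4 of the list fell and 0 rose (17.3% and 12.0% of all genes). S100a10, a plasminogen-binding surface protein, averaged 214 ± 64.9 in adult and 1098 ± 501 in immature cells (adjusted p = 4.18e-07). Thrombomodulin (Thbd) averaged 121 ± 37.3 in adult and 935 ± 230 in immature cells (adjusted p = 2.55e-07).

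The TIMPs did not move as a group. Timp3, the matrix-bound inhibitor, read 182, 86.2, 126, 72.1 and 106 on the stem arrays, 1233, 1415 and 1207 on progenitor, 853, 1107, 976 and 1440.1 on immature, and 1367, 934, 906 and 1189.6 on adult arrays. Every later Leydig array was above every stem array, and the 3 later stages overlapped. It rose by 3.37 ± 0.29 in progenitor relative to stem cells (adjusted p = 1.03e-08) and was called in neither later step (adjusted p = 0.839 and 0.984). The other 3 probe sets of Timp3 were called in the same direction at the first step.

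Timp2, which also helps Mmp14 to activate pro-MMP2, read 3217, 2099, 2071, 1629 and 2555 on stem, 1788, 2332 and 2264 on progenitor, 2066, 3083, 2981 and 2720.3 on immature, and 3966, 3591, 5169 and 3676 on adult arrays. Each adult array was above all 12 others of the lineage. The change was 0.84 ± 0.18 in adult relative to stem cells (adjusted p = 0.000683) and 0.59 ± 0.19 relative to immature cells (adjusted p = 0.0312). That last call was lost without any one of immature replicates 1 and 4 and adult replicates 1 and 3 (changes of 0.47, 0.60, 0.60 and 0.48, adjusted p from 0.0545 to 0.116). Timp1 dipped in progenitor cells (1724, 1997 and 1890.1, against 3572, 2681, 2484, 2035 and 3109 in stem cells) and fell by 0.54 ± 0.16 (adjusted p = 0.0129), which was no longer called when progenitor replicate 1 was left out (-0.485, adjusted p = 0.0576). Between adult and stem cells its change was 0.07 ± 0.15 (adjusted p = 0.766), and with quantile normalization -0.47 (adjusted p = 1.11e-05). Timp4 averaged 12.7 to 26.0 over the groups and was called in no step of the lineage.

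Among 10 further regulators of metalloproteinases, 1 rose and 4 fell in progenitor relative to stem cells (26.8% and 18.5% of all genes). In adult relative to stem cells 2 rose and 5 fell (27.7% and 26.0% of all genes). Reck, a membrane-anchored inhibitor of several metalloproteinases, averaged 825 ± 170 in stem, 279 ± 119 in immature and 35.9 ± 16.9 in adult cells. It fell by 4.04 ± 0.26 in adult relative to stem cells (adjusted p = 4.61e-11). A2m, the alpha-2-macroglobulin that traps proteases, averaged 9.96 ± 2.35 in progenitor and 230 ± 134 in stem cells (change -3.06 ± 0.32, adjusted p = 1.74e-07). Lcn2, which binds MMP9, averaged 15.2 ± 17.3 in stem, 119 ± 63.2 in immature and 548 ± 224 in adult cells, and its change in adult relative to stem cells was 4.24 ± 0.35 (adjusted p = 2.5e-09).

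Of the 16 ADAM genes, 5 were called higher and 5 lower in adult than in stem cells, close to the 27.7% and 26.0% of all genes. Adam19, which can release neuregulin, read 1348, 1171, 833, 894 and 1244 on stem, 226, 219 and 206 on progenitor, 226, 206, 171 and 354 on immature, and 51.9, 87.9, 38.7 and 27.3 on adult arrays. It dropped at the first and the last step without overlap, by 2.23 ± 0.23 (adjusted p = 1.51e-07) and 1.95 ± 0.22 (adjusted p = 2.61e-06). Adam23, which lacks an active protease site and binds integrins, read 327, 389, 144, 330.1 and 372 on stem, 198, 176 and 174 on progenitor, 97.9, 93.9, 118 and 117 on immature, and 14.8, 8.53, 9.11 and 5.58 on adult arrays. Its fall in adult relative to immature cells was 2.27 ± 0.21 (change -2.27, adjusted p = 1.71e-07). In progenitor relative to stem cells it fell by 0.66 ± 0.22 (adjusted p = 0.022) with overlap. That call was lost without progenitor replicate 2 or 3 or stem replicate 2 or 5 (adjusted p from 0.056 to 0.0702). It was also lost in a fit of the 2 groups (0.081). The dimmer probe sets of Adam23 were each called lower at this step (changes of -1.37 and -1.37, adjusted p = 6.86e-06 and 0.000105). In adult relative to immature cells these dimmer probe sets were not called (-0.45 and -0.64, adjusted p = 0.0926 and 0.0565).

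Adam33, linked to airway smooth muscle in humans, stayed up until the immature stage. It read 242, 231, 147, 258 and 285 on stem, 296, 332 and 466 on progenitor, 280.3, 221, 303 and 485 on immature, and 50.7, 73.3, 52.0 and 42.4 on adult arrays. Adult cells were below every other Leydig array, a fall of 2.22 ± 0.22 relative to immature cells (change -2.22, adjusted p = 4.87e-07). The rise in progenitor relative to stem cells (0.62 ± 0.23, adjusted p = 0.0416) was lost with other settings, among them median centring (0.39, adjusted p = 0.185) and the fits without progenitor replicate 2 or 3 or without stem replicate 1, 2 or 3 (adjusted p from 0.0512 to 0.228).

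The sheddases moved less. Adam17, which releases tumour necrosis factor, read 191, 157, 150.2 and 173 on adult arrays, against 298, 453, 285, 484 and 367 on stem arrays, and fell by 1.07 ± 0.14 (adjusted p = 2.16e-06). No single step was called, except the first with median centring (-0.57, adjusted p = 0.013) and without stem replicate 1 or 3 (adjusted p = 0.0394 and 0.0257). Adam15 averaged 115 ± 35.8 in adult and 241 ± 21.4 in stem cells (change -1.01 ± 0.16, adjusted p = 2.67e-05). Adam10, which cuts Notch and cadherins, passed no test in the lineage, with 123 to 151 on adult and 48.1 to 139 on stem arrays. Its lowest Leydig signals, 46.5 on progenitor replicate 3 and 48.1 on stem replicate 3, came from the arrays with the highest beta-actin ratio of their groups (6.35 and 1.84), and a part of that in the level was not tested.

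Adam2, Adam4, Adam6 and Adam32, all known from sperm or testis in rodents, had low signals. They are named as 4 of the 5 ADAM genes called higher in adult than in stem cells. They averaged 24.2, 16.3, 27.1 and 38.6 in adult cells, against 9.51, 6.07, 5.34 and 8.51 in stem cells, with changes of 0.65, 0.56, 1.01 and 1.15. Adam18, near Adam32 on chromosome 16, averaged 13.9 in adult and 13.4 in stem cells. It did not differ among the stages by the F-test (adjusted p = 0.106). The germ cell markers rose between adult and stem cells (12 of 14 called higher, 1 lower, beside 27.7% and 26.0% of all genes). The protamine Prm1 averaged 635 in adult and 2.76 in stem cells. The part of germ cells in these 4 genes was not tested. Adam8, a leukocyte-expressed ADAM, rose as well, with 26.9 ± 8.06 in adult and 7.60 ± 1.48 in stem cells (change 0.84 ± 0.18, adjusted p = 0.000636). In the same comparison 14 of the 16 leukocyte markers were called higher and 1 lower (27.7% and 26.0% of all genes).

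Among the ADAMTS genes, 4 of 12 rose and 6 fell in progenitor relative to stem cells (26.8% and 18.5% of all genes). With median centring 2 rose and 7 fell (17.2% and 27.7% of all genes). Between adult and immature cells 7 fell and 0 rose (17.3% and 12.0% of all genes), with a median change of -0.55. Adamts9, which cuts aggrecan and versican, showed a transient rise. It read 26.9, 29.9, 32.5, 16.4 and 20.2 on stem, 632, 646 and 687 on progenitor, 309.6, 308, 271 and 825 on immature, and 37.5, 26.9, 32.6 and 30.0 on adult arrays. It was high on every progenitor and immature array and low on every stem and adult array. The rise of 4.04 ± 0.25 in progenitor relative to stem cells (adjusted p = 5.45e-11) was the largest of any member, and the change in adult relative to immature cells was -3.07 ± 0.24 (adjusted p = 2.06e-08). The other probe set of Adamts9 was dim, with group means of 16.7 to 30.4. It was called at neither of these steps (0.39 and -0.36, adjusted p = 0.106 and 0.183). Immature replicate 4 lay above the progenitor arrays. Without it, Adamts9 was called lower in immature than in progenitor cells (-1.11, adjusted p = 0.000244, against -0.75 and 0.2 with it).

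Adamts15, a versican-cutting member, read 4.31, 1.29, 13.8, 10.1 and 6.40 on stem and 77.6 to 168 on the 11 later Leydig arrays. The change in progenitor relative to stem cells was 2.30 ± 0.21 (adjusted p = 3.21e-08), and in adult relative to stem cells 2.20 ± 0.20 (adjusted p = 9.22e-09). Its neighbour Adamts8, the next protein-coding gene on chromosome 8 in GRCr8, went the opposite way. Adamts8 averaged 10.1 ± 4.99 in progenitor and 116 ± 70.6 in stem cells and fell by 2.14 ± 0.43 (adjusted p = 0.000414).

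Adamts1 and Adamts5, also neighbours (chromosome 11), both ended low. Adamts1, an aggrecanase and inhibitor of blood vessel growth, read 564, 624, 509, 800.2 and 722 on stem, 150.2, 125 and 218 on progenitor, 111, 87.1, 90.4 and 395 on immature, and 178, 56.9, 73.9 and 92.5 on adult arrays. It fell by 1.88 ± 0.35 in progenitor relative to stem cells (adjusted p = 0.000237), with no later array in the stem range. Adamts5, the main aggrecanase of mouse cartilage, dropped late. It read 16.5, 9.01, 7.62 and 6.11 on adult, against 56.7, 65.6, 67.2 and 85.2 on immature arrays, and fell by 1.72 ± 0.27 (adjusted p = 7.49e-05). Its change in progenitor relative to stem cells was -0.70 ± 0.27 and missed the call (adjusted p = 0.0508), which it passed in 7 settings, among them median centring (-0.93, adjusted p = 0.00669) and the fits without stem replicate 3 or 5 or progenitor replicate 3 (-0.86, -0.79 and -0.84, adjusted p = 0.0159, 0.0401 and 0.0481). The other probe set of Adamts5 was not called between progenitor and stem cells (-0.24, adjusted p = 0.436). It was called lower in adult than in immature cells (-1.58, adjusted p = 1.34e-05). Adamts12 fell at both steps, by 1.40 ± 0.25 (adjusted p = 0.000112) and 1.41 ± 0.24 (adjusted p = 0.000183), with group means of 419 ± 75.7 for stem, 148 ± 19.3 for progenitor, 172 ± 39.5 for immature and 53.9 ± 9.02 for adult cells.

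Among 24 other matrix and cell surface proteases, 8 rose and 6 fell in progenitor relative to stem cells (26.8% and 18.5% of all genes). In adult relative to immature cells 5 rose and 9 fell (12.0% and 17.3% of all genes). Htra3, a secreted serine protease, was high in the middle stages like Adamts9, averaging 148 ± 39.3 on stem arrays, 1179 ± 80.9 on progenitor arrays, 1238 ± 221 on immature arrays and 161 ± 35.9 on adult arrays. It rose by 2.90 ± 0.19 at the first step (adjusted p = 1.97e-10) and fell by 2.83 ± 0.19 at the last (adjusted p = 2.36e-09). Enpep, aminopeptidase A, averaged 2.17 ± 1.02 in progenitor and 294 ± 61.9 in stem cells (change -4.07 ± 0.24, adjusted p = 4.09e-11). Bmp1, the procollagen C-proteinase, averaged 70.9 ± 10.04 in adult and 197 ± 15.97 in immature cells (change -1.30 ± 0.12, adjusted p = 1.64e-07).

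Among the cathepsins, rises outnumbered falls in adult cells. Between adult and immature cells 6 of 17 rose and 3 fell (12.0% and 17.3% of all genes). Between adult and stem cells 9 rose and 1 fell (27.7% and 26.0% of all genes), with a median change of 0.40. With median centring 6 rose and 2 fell there, beside 24.7% and 26.8% of all genes. Cathepsin D (Ctsd), an aspartic protease of the lysosome, read 1741, 1336, 1203, 1084 and 1536 on stem, 1193, 1391 and 761 on progenitor, 1224, 1444, 1369 and 1359.6 on immature, and 2528, 2312, 2694 and 2449.6 on adult arrays. The first 3 stages overlapped, and every adult array was above them. It rose by 0.88 ± 0.16 in adult relative to immature cells (adjusted p = 0.000481).

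Cathepsin B (Ctsb), a cysteine protease of the lysosome, averaged 3267 ± 454 in adult and 2174 ± 355 in immature cells, without overlap, and rose by 0.59 ± 0.18 (adjusted p = 0.0224). This call was lost without immature replicate 1 or 4 or adult replicate 3 (changes of 0.51, 0.54 and 0.50, adjusted p from 0.0624 to 0.084), while the rise relative to stem cells (0.71 ± 0.17, adjusted p = 0.00182) held in all settings tried. Ctsa, which protects lysosomal sialidase, averaged 1866 ± 91.0 in adult and 1155 ± 113 in immature cells (change 0.69 ± 0.16, adjusted p = 0.0028). Ctsf averaged 547 ± 26.2 and 366 ± 21.1 in the same groups (0.56 ± 0.17, adjusted p = 0.0188), no longer called without adult replicate 3 (0.53, adjusted p = 0.0523) or after quantile normalization (0.46, adjusted p = 0.059). Cathepsin K (Ctsk), the collagen-cutting protease of osteoclasts, dipped in progenitor cells (396 ± 47.2, against 670 ± 36.7 in stem cells, adjusted p = 1.97e-05) and was back at 719 ± 23.7 in adult cells, against 522 ± 78.0 in immature cells (adjusted p = 0.00369).

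Cathepsin H (Ctsh), an aminopeptidase, rose more gradually. It read 1265, 1305, 1193, 1159.9 and 1263 on stem, 1680.2, 2334 and 2258 on progenitor, 2125, 3599, 3612 and 3167 on immature, and 3996, 3524, 5285 and 3663 on adult arrays. The first step was called (0.74 ± 0.17, adjusted p = 0.00192), and the later 2 were not. Immature relative to progenitor cells passed with quantile normalization (0.495, adjusted p = 0.00321) and without immature replicate 1 (0.73, adjusted p = 0.0398), and adult relative to immature cells with median centring (0.59, adjusted p = 0.0167). Adult cells were 1.70 ± 0.16 above stem cells (adjusted p = 1.6e-08). Ctso followed a similar course, at 113 ± 31.4 in adult and 23.6 ± 7.24 in stem cells (change 1.69 ± 0.17, adjusted p = 5.29e-08).

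Cathepsin L (Ctsl), another lysosomal cysteine protease, was the one cathepsin called lower in adult than in stem cells. It read 3099, 2371, 2231, 1905 and 2515 on stem, 1253, 1243 and 942 on progenitor, 1071, 955, 913 and 1009.6 on immature, and 728, 553, 668 and 654 on adult arrays, with no overlap between stem and later arrays or between adult and earlier ones. It fell by 1.06 ± 0.15 in progenitor relative to stem cells (adjusted p = 7.75e-06) and by 0.59 ± 0.14 in adult relative to immature cells (adjusted p = 0.0049), a call lost with median centring (-0.41, adjusted p = 0.126).

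Cathepsin S (Ctss), which processes the invariant chain in antigen-presenting cells, rose in the lineage, with 66.7, 53.4, 31.1, 49.0 and 33.5 on stem, 92.5, 87.1 and 169 on progenitor, 238, 111, 86.7 and 265 on immature, and 482, 265, 228 and 296 on adult arrays. Its change in adult relative to stem cells was 2.39 ± 0.28 (adjusted p = 4.42e-07). The leukocyte markers were higher on later arrays too, as given above. Their sum was lower on adult arrays (1348 to 3292) than on progenitor arrays (4711 to 6075), but single markers went both ways. Ptprc averaged 371 in progenitor and 55.4 in adult cells, C1qa 28.6 and 97.0, and Cd163 7.82 and 21.6. Between adult and immature cells 2 of the 16 were called higher and 5 lower (12.0% and 17.3% of all genes). The part of leukocytes in Ctss was not tested. The single steps of Ctss were fragile. The call in progenitor relative to stem cells (1.05 ± 0.30, adjusted p = 0.00939) was lost without progenitor replicate 3 (0.79, adjusted p = 0.0841). The call in adult relative to immature cells (0.88 ± 0.29, adjusted p = 0.0382) was lost in a fit of the 2 groups (adjusted p = 0.0984), with the closest pairs of arrays averaged (0.67, adjusted p = 0.15), and without immature replicate 2 or 3 or adult replicate 1 or 4 (changes of 0.72, 0.62, 0.67 and 0.89, adjusted p from 0.0712 to 0.152).

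Ctse and Ctsw were high in the middle stages. Ctse, an aspartic protease of epithelia and immune cells, averaged 91.1 ± 29.1 in progenitor and 14.2 ± 3.96 in stem cells (change 1.80 ± 0.22, adjusted p = 1.04e-06), and 39.5 ± 14.9 in adult against 88.5 ± 18.4 in immature cells (change -0.94 ± 0.21, adjusted p = 0.00257). Ctsw, known from cytotoxic lymphocytes, averaged 49.7 ± 17.7 in progenitor and 11.9 ± 5.12 in stem cells (change 1.22 ± 0.30, adjusted p = 0.00263). In adult relative to immature cells Ctsw changed by -0.99 ± 0.29 (adjusted p = 0.0166) with overlap, a call lost without immature replicate 1 or adult replicate 3 or 4 (-0.87, -0.88 and -0.69, adjusted p from 0.0501 to 0.0815), with quantile normalization (0.055) and in a fit of the 2 groups (0.0709). The rodent placental cathepsins Ctsj, Ctsm, Ctsq and Ctsr stayed under 16 on every array.

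**Figure D3:**
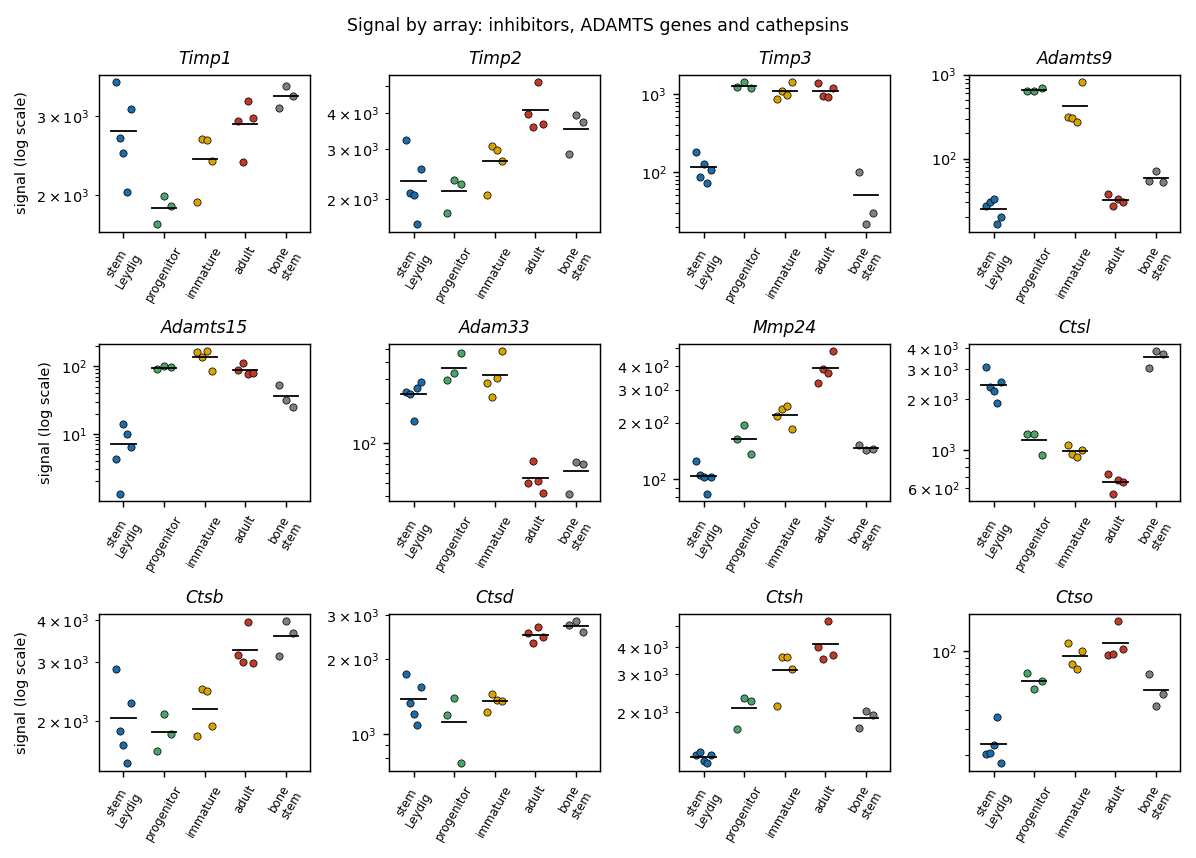
Points are signals of single arrays on a log axis whose range differs between panels, in stage order with bone stem cells last, and lines are group means. Timp3 and Adamts15 step up after the stem stage, Adamts9 is high only on progenitor and immature arrays, and every adult array of Ctsd and Ctsb lies above all earlier arrays, by little for Ctsb (lowest adult array 2982, highest stem array 2856).

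Of 27 other lysosomal genes, 10 rose and 1 fell in adult relative to immature cells (12.0% and 17.3% of all genes), with a median change of 0.35. Between progenitor and stem cells 6 of them rose and 10 fell (26.8% and 18.5% of all genes). Ppt1, a lysosomal thioesterase, averaged 1313 ± 122 in adult and 686 ± 77.8 in immature cells (change 0.92 ± 0.11, adjusted p = 3.4e-06), and rose by 1.11 ± 0.11 in progenitor relative to stem cells (adjusted p = 1e-07). Legumain (Lgmn), which cleaves several cathepsins into their mature forms, averaged 217 ± 42.4 in adult and 829 ± 87.4 in stem cells (change -1.87 ± 0.12, adjusted p = 4.98e-11). Gusb, beta-glucuronidase, was the gene that fell in adult relative to immature cells (300 ± 19.1 against 443 ± 56.2, adjusted p = 0.00104), and Fuca1, alpha-fucosidase, was the one gene called between immature and progenitor cells (1304 ± 199 against 801 ± 50.3, adjusted p = 0.0195).

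Of 7 cystatins, which inhibit cysteine cathepsins, 4 rose and 2 fell in progenitor relative to stem cells (26.8% and 18.5% of all genes). In adult relative to immature cells 0 rose and 1 fell (12.0% and 17.3% of all genes). In adult relative to stem cells 3 rose and 2 fell (27.7% and 26.0% of all genes). Cst7, which in immune cells limits cathepsin C, averaged 152 ± 29.2 in progenitor and 11.5 ± 3.87 in stem cells (change 2.61 ± 0.22, adjusted p = 6.96e-09), and 22.3 ± 11.5 in adult against 114 ± 35.4 in immature cells (change -1.78 ± 0.21, adjusted p = 4.12e-06). Cst8, a cystatin of the male tract, averaged 135 ± 37.4 in immature and 53.6 ± 13.3 in progenitor cells (change 1.10 ± 0.21, adjusted p = 0.00923) and reached 150 ± 20.2 in adult cells, against 10.7 ± 3.84 in stem cells. Cst6 averaged 2.30 ± 1.94 in adult and 26.5 ± 5.60 in stem cells (change -1.21 ± 0.13, adjusted p = 1.84e-07).

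**Figure D4:**
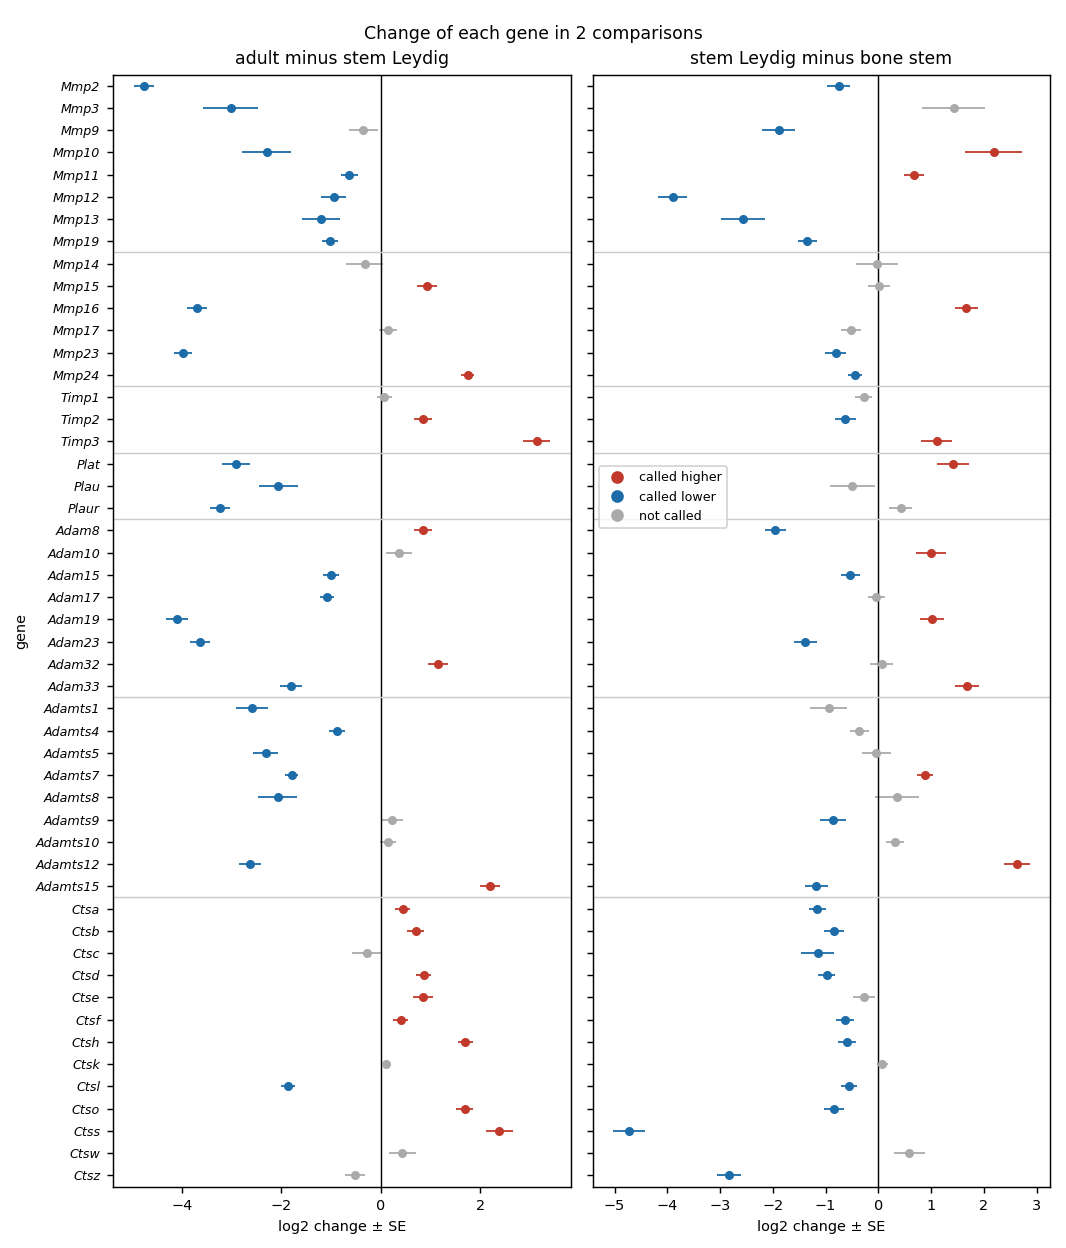
Each point is the log2 change of 1 of 50 members with its SE, adult minus stem Leydig on the left and stem Leydig minus bone stem on the right, red where called higher, blue where called lower and grey where not called. On the left Mmp2, Adam19 and Mmp23 lie lowest and Timp3 highest, and on the right Ctss and Mmp12 lie lowest and Adamts12 highest. Both panels use the same 5 stem Leydig arrays.

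Stem Leydig cells were also compared with bone stem cells, a stem cell from outside the testis by its label. In stem Leydig cells 12 members were called higher and 25 lower, against 9.73% of all genes called higher and 14.1% lower. The 2 bone stem arrays that resembled each other most weigh on these counts: the lower count was 15 without bone stem replicate 2, 16 without replicate 3 and 15 with the 2 averaged, and the higher count 9, 8 and 8. The shares of all genes were smaller too, at 9.88%, 9.95% and 9.64% lower and 6.46%, 6.37% and 6.31% higher. Cathepsins made up much of the lower side, with 10 of 17 lower and 0 higher and a median change of -0.60, beside 16 lower and 0 higher among the 27 other lysosomal genes.

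Ctss read 66.7, 53.4, 31.1, 49.0 and 33.5 in stem Leydig cells, against 1953, 1392 and 1508 in bone stem cells, a change of -4.72 ± 0.30 (adjusted p = 5.21e-10). Ctsz, a carboxypeptidase of macrophages and other cells, read 108, 96.0, 36.2, 92.7 and 105 in stem Leydig cells, against 745, 695 and 632 in bone stem cells (change -2.83 ± 0.22, adjusted p = 9.12e-09). Mmp12 averaged 29.6 ± 8.79 in stem Leydig and 715 ± 387 in bone stem cells (change -3.90 ± 0.27, adjusted p = 1.63e-09). In each of these 3 genes the groups were far apart and every bone stem array was the brighter. Mmp13 read 8.95 to 83.2 in stem Leydig and 716, 162 and 192 in bone stem cells (adjusted p = 0.000134). Adam8 averaged 7.60 ± 1.48 and 78.2 ± 27.8 in the same order (adjusted p = 3.29e-07). Mmp9 read 1.46 to 13.0 in stem Leydig and 175, 37.2 and 37.01 in bone stem cells (adjusted p = 0.000142). Of the 16 leukocyte markers 13 were called lower and 0 higher in stem Leydig cells (14.1% and 9.73% of all genes). Among the 13 were Csf1r, the receptor that marks macrophages (19.97 against 522), and Cd68 (29.7 against 2094). The osteoclast markers were less marked, with Acp5 at 132 in stem Leydig and 324 in bone stem cells and Calcr and Tnfrsf11a at 16.7 or less in both. The part of these cells in the protease differences was not tested.

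**Figure D5:**
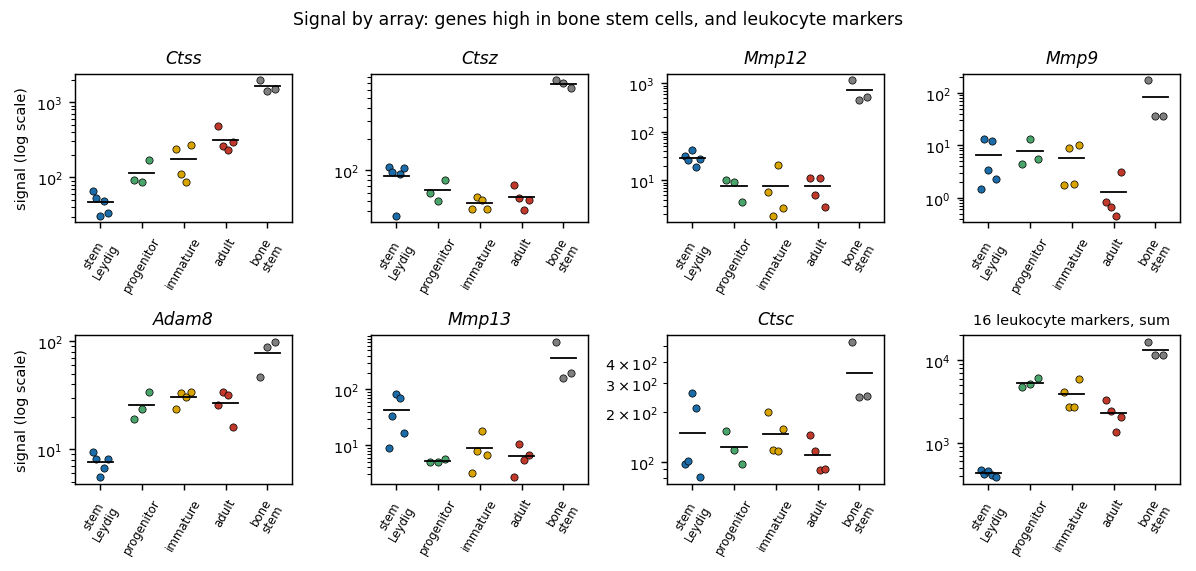
Points are signals of single arrays on a log axis whose range differs between panels, and lines are group means. In every panel but Ctsc all 3 bone stem arrays lie above all Leydig arrays, and the last panel shows the same for the summed signal of 16 leukocyte markers.

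The bright lysosomal cathepsins differed by less. Ctsd averaged 1380 ± 263 in stem Leydig and 2707 ± 146 in bone stem cells (change -0.98 ± 0.17, adjusted p = 0.000237), and Ctsb 2035 ± 540 and 3588 ± 437 (change -0.84 ± 0.19, adjusted p = 0.00252). Ctsl (-0.55 ± 0.15, and -0.13 with quantile normalization), Ctsh (-0.60 ± 0.17) and Ctsf (-0.64 ± 0.17) were called lower, but not without bone stem replicate 2 or 3 (adjusted p from 0.0622 to 0.0961). Ctsk did not pass (670 ± 36.7 against 635 ± 14.6, adjusted p = 0.749).

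Some of the genes that were low in later Leydig cells were as high or higher in bone stem cells. Mmp2 averaged 1729 ± 447 in stem Leydig and 2883 ± 458 in bone stem cells, with overlap, and the call of a lower level in stem Leydig cells (-0.76 ± 0.22, adjusted p = 0.0194) was lost without stem replicate 4 or bone stem replicate 2 or 3 (adjusted p from 0.052 to 0.103), with quantile normalization (0.0612) and with the mean of its probe sets (0.0683). Mmp23 averaged 799 ± 63.1 and 1456 ± 422, and its call (adjusted p = 0.00712) was lost without bone stem replicate 2 or 3 (0.0568 and 0.0713). Adam23 averaged 313 ± 97.7 in stem Leydig and 806 ± 105 in bone stem cells (change -1.39 ± 0.22, adjusted p = 9.1e-05). Plau, Plaur, Adamts1, Adamts5 and Adam17 were not called. Plau was called lower in stem Leydig cells without stem replicate 4 (-0.94, adjusted p = 0.0335), and Plaur higher without stem replicate 1 (0.61, adjusted p = 0.0224). Adamts1 averaged 644 ± 118 in stem Leydig and 1241 ± 155 in bone stem cells without overlap (change -0.94 ± 0.35, adjusted p = 0.0724), and was called lower in 6 settings, among them a fit of the 2 groups (adjusted p = 0.00262) and the fit without the 2 arrays that stand apart (adjusted p = 0.00565).

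Other members were higher in stem Leydig cells. Adamts12, which cuts cartilage oligomeric matrix protein, read 543, 371, 372, 367 and 441 in stem Leydig and 118, 33.0 and 36.2 in bone stem cells (change 2.62 ± 0.25, adjusted p = 1.17e-07). Adam33 averaged 233 ± 51.9 and 61.6 ± 17.2 (change 1.68 ± 0.23, adjusted p = 2.03e-05), and Mmp16 averaged 287 ± 101 and 75.6 ± 6.01 (change 1.67 ± 0.22, adjusted p = 9.08e-06). Plat averaged 497 ± 85.3 in stem Leydig and 177 ± 27.7 in bone stem cells (change 1.40 ± 0.30, adjusted p = 0.00219). In these 4 genes every stem Leydig array was above every bone stem array, as it was in Adam19 (1098 ± 224 and 527 ± 16.4, adjusted p = 0.00361). Adam10 was called higher in stem Leydig cells (1.002 ± 0.29, adjusted p = 0.0173), and not without bone stem replicate 2 or 3 (0.0602 and 0.0755). Its 3 bone stem signals of 39.2 to 47.6 came with the raised beta-actin ratios given above, whose part was not tested.

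Bone stem replicate 1 differed from the other 2 in several proteases. It read 436 for Mmp3 against 14.2 and 11.1 on replicates 2 and 3, so the change in stem Leydig relative to bone stem cells was 1.43 ± 0.60 (adjusted p = 0.109) with it and 2.75 (adjusted p = 3.01e-06) without it. Timp3 was uneven there as well (101, against 21.3 and 29.6). The Timp3 call of a higher level in stem Leydig cells (1.10 ± 0.29, adjusted p = 0.0104) was lost without bone stem replicate 2 or 3 (0.78 and 0.93, adjusted p = 0.117 and 0.081) and in a fit of the 2 groups (0.0613). Dimmer probe sets of Timp3 were called in the same direction (1.41 and 0.81, adjusted p = 0.000492 and 0.00298), except the dimmest (0.39, adjusted p = 0.378). For Timp2 the probe sets disagreed. The brighter one was lower in stem Leydig cells (2314 ± 602 against 3517 ± 554, change -0.63 ± 0.20, adjusted p = 0.0313), and this call was lost without bone stem replicate 2 or 3 or stem replicate 2, 3 or 4 (adjusted p from 0.0537 to 0.157). The dimmer one was higher (292 against 63.6, change 1.83, adjusted p = 0.0132), so no direction is given for Timp2 here. The calls for Mmp24, Adamts9 and Adamts15 were of a lower level in stem Leydig cells (-0.44, -0.87 and -1.18, adjusted p = 0.0309, 0.0162 and 0.00045). The Mmp24 call was lost without any 1 bone stem array or stem replicate 2, 4 or 5 (adjusted p from 0.0503 to 0.0936), and the Adamts9 call without bone stem replicate 2 (0.0969), at a pseudocount of 64 (0.145) and with the mean of its probe sets (0.0876).

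The genomic order of the members in GRCr8 gives a further view. Mmp13, Mmp12, Mmp3, Mmp10, Mmp8 and Mmp7 follow one another on chromosome 8 with 0 to 2 other protein-coding genes between neighbours. The first 4 of these were called lower in progenitor than in stem cells, and the last 2 were dim throughout. In bone stem cells the run divided, with Mmp13 and Mmp12 called higher there than in stem Leydig cells and Mmp10 called lower. Ctsk and Ctss lie 1 gene apart on chromosome 2 and moved in opposite directions between progenitor and stem cells (-0.74 ± 0.11 and 1.05 ± 0.30).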

How the data were processed

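Per the labels' protocols, total RNA was extracted with Trizol and a column and labelled with biotin. The deposited values are linear array intensities. MAS5 and GCOS are the tools that the submitters' processing notes name, without versions. The values were already scaled by array. The median signal of an array was 18.9 to 36.6, and the share of probe sets with a signal under 16 was 29.1% to 47.3%. No detection calls were used here, and precision is limited by the number of arrays.

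Of 31099 probe sets, 57 controls were left out. The array annotation gives 20826 probe sets 1 symbol, 436 several and 9780 none. All 69 members' gene IDs were in the RefSeq table, with 0 symbols changed. Of the members, 20 had several probe sets, and the brightest on average was used.

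Signals were tested as log2(signal + 16), which understates the change of dim genes, with no filter on low values. All 19 arrays entered one limma 3.58.1 model (R 4.3.3) with 5 group means and an intensity trend, two-sided, with Benjamini-Hochberg adjustment over 31042 probe sets. This model gives each adjusted p unless another fit is named. Python 3.11.15, pandas 2.3.3 and matplotlib 3.10.9 were used for tables and plots. The model was tested on simulated data first.

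Members, lists and tests were chosen with earlier results of these data known. Named members are, per comparison, the 6 largest rises and 6 largest falls among calls without overlap whose brighter group reached the median probe set, plus 18 fixed genes. Members that make up a small count or lie beside a named gene on a chromosome are named too. From each list of related genes the 2 calls with the smallest adjusted p are named. Of listed symbols, 10 of 12 metalloproteinase regulators, 13 of 14 plasminogen partners, 7 of 10 cystatins, 27 of 32 lysosomal genes and 24 of 27 other proteases were measured, as were all 16 leukocyte, 9 smooth muscle and 7 Leydig markers, 14 of 18 germ cell markers and 3 of 7 osteoclast markers.

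Alternatives were quantile normalization, median centring, pseudocounts of 1 and 64, dropping the dimmest 40% of probe sets, a fit without the intensity trend, the mean of all probe sets, the replicate number as a block, a fit of only the groups compared, leaving out the 2 arrays that stand apart, leaving out each array in turn and, chosen after seeing the data, averaging the closest pairs of arrays.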

Additional observations from a re-analysis of the deposited data

Results flagged for a closer look

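Of 117 sets of arrays examined (a named member in a group of 4 or 5), 8 held an array far from the rest, and chance flags about 1 in 20. Immature replicate 4, which stands apart as a whole, gave 3 of them. It read 825 for Adamts9 (271 to 310 on the other immature arrays), 395 for Adamts1 (87.1 to 111) and 251 for Adam17 (203 to 210). Stem replicate 3 read 144 for Adam23 (327 to 389 on the other stem arrays) and 36.2 for Ctsz (92.7 to 108). Its beta-actin 3′ to 5′ ratio of 1.84 was the highest among the stem arrays. Stem replicate 1 read 2080 for Mmp14 (1120 to 1290), and stem replicate 4 read 3.25 for Ctsw (12.4 to 16.7). Adult replicate 4 read 3.17 for Mmp9 (0.458 to 0.840), all at signals too low to order.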

How the results depend on the processing

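Counts of called members kept within 1.5 times of those reported, except for 4 counts in 3 comparisons. Between immature and progenitor cells the higher count of 0 became 2 with quantile normalization, 1 with the replicate block and 4 without the 2 arrays that stand apart, and ranged from 0 to 3 when each array was left out. The lower count of 0 became 1 without those 2 arrays and ranged from 0 to 1. In the whole table this comparison moved as well, with 276 genes called, 156 at a pseudocount of 1, 10 in a fit of the 2 groups, 105 with the closest pairs averaged, 823 without both arrays and 101 to 901 with 1 array left out (901 without immature replicate 4). Between adult and immature cells the higher count of 8 ranged from 5 (without adult replicate 3) to 9 when each array was left out, and was 12 with median centring. Of all genes, 1706 were higher there, 1415 without adult replicate 3 and 2485 with median centring. Between stem Leydig and bone stem cells the lower count of 25 became 15 with the closest pairs averaged and ranged from 15 to 24 when each array was left out. Median centring moved the share of higher among called genes to 38.2% in place of 59.2% between progenitor and stem cells, to 64.3% in place of 41.0% between adult and immature cells, and to 30.4% in place of 40.8% between stem Leydig and bone stem cells.

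Sign changes that involved a call included 2 cases. Small changes that were not called could change sign as well. Timp1 in adult relative to stem cells was -0.470 with quantile normalization, and Timp2 in stem Leydig relative to bone stem cells was 0.603 with the mean of its probe sets, which disagree. For Timp1 the cause was not tested.

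Replicate numbers did not pair the arrays. Over 33 same-numbered pairs of different groups the deviations from the group means correlated at -0.379 to 0.281 (median 0.0431), with 9 over 0.1. With the replicate number as a block, 15 members were higher and 22 lower between progenitor and stem cells, 9 and 16 between adult and immature, 19 and 25 between adult and stem, and 11 and 23 between stem Leydig and bone stem cells. Of all 14217 genes, 3438 were higher and 2382 lower between progenitor and stem cells in that fit. The counts over all genes were 1611 and 2285 between adult and immature, and 3671 and 3493 between adult and stem. Between stem Leydig and bone stem cells they were 1137 and 1639.

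Signal over background limits the 8 members under 16 on every array and the low side of the largest folds.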

Other observations

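The summed signals of several marker lists outside the protease families differed between Leydig stages. The 5 measured granulocyte and marrow markers, Hbb among them, summed to 7.75 to 16.2 on stem, 3360 to 5219 on progenitor, 2464 to 5251 on immature and 281 to 715 on adult arrays. The 3 measured accessory gland and epididymis markers summed to 7.02 to 20.9 on stem arrays and 2214 to 3914 on the later Leydig arrays. The 10 endothelial markers summed to 339 to 524 on stem, 1080 to 2047 on progenitor, 326 to 904 on immature and 629 to 3158 on adult arrays. Of these 10, 7 were called higher in adult than in immature cells and 0 lower (12.0% and 17.3% of all genes). The 9 Sertoli cell markers summed to 630 to 938 on stem arrays and 1366 to 2543 on the later Leydig arrays. Of these 9, 3 were called higher and 0 lower in adult than in stem cells, beside 27.7% and 26.0% of all genes. The higher count was thus near the share of all genes. The 8 mesenchymal stromal markers summed to 3660 to 4210 on adult and 6055 to 9798 on stem arrays. Of these 8, 3 were called higher and 5 lower in adult than in stem cells (27.7% and 26.0% of all genes). The part of these lists in the protease differences was not tested.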
